A study of Rattus norvegicus with 19 samples.

Results

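The cytosolic sulfotransferases of the Sult1 and Sult2 families were followed in liver RNA of postnatal day 4 rats whose dams had been gavaged with DE-71, a commercial flame retardant mixture of pentabromodiphenyl ethers. Members were taken by name: every probe set (a group of short probes for a transcript) whose platform gene symbol begins with Sult1 or Sult2. This gave 12 probe sets for 11 genes out of 31042 probe sets tested and 14217 genes. Sult2b1 has 2 probe sets, and the probe set with the highest mean over the 19 arrays leads. A further probe set carries several symbols, a Sult1 gene among them, and is given without a gene name. The dams were timed-mated Wistar Han rats (Crl:WI (Han)), 11 to 12 weeks old on arrival at gestation day 2. They received corn oil alone or DE-71 in corn oil by gavage at 0.1, 15 or 50 mg/kg per day, in 5 mL/kg, from gestation day 6 to postnatal day 4. The vehicle, 0.1, 15 and 50 mg/kg groups hold 5, 5, 4 and 5 arrays, and no array labelled 15 mg/kg replicate 1 was used here. Values are log2 signals after robust multi-array average (RMA) processing.

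Sulfotransferases move a sulfonate group from the cofactor PAPS (3'-phosphoadenosine 5'-phosphosulfate) onto hydroxyl or amine groups of hormones, bile acids, drugs and their metabolites, which makes them more water-soluble and ready for export. Members of family 1 act mainly on phenols, thyroid hormones and estrogens, and members of family 2 on steroids and bile acids. In adult rat liver several of them differ between the sexes, and hydroxylated metabolites of brominated diphenyl ethers are known as inhibitors of the estrogen sulfotransferase.

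Some arrays stand apart and bear on the values below. The AhR target Cyp1a1, a monooxygenase that reports exposure to dioxin-like compounds, read 7.10 to 8.36 in vehicle, 13.16 to 14.17 at 15 mg/kg and 14.11 to 14.30 at 50 mg/kg (log2 signal). The library labelled 0.1 mg/kg replicate 1 read 14.06, against 7.19 to 8.42 in the others of its group, which goes against its label. Vehicle replicate 2 and 0.1 mg/kg replicate 2 were closer to each other than any other 2 arrays. The SD of their differences over all probe sets was 0.128 log2, against 0.197 to 0.619 in the other 170 pairs. They differed by more than 1 log2 in 1 probe set, where every other pair differed in at least 78. The labels place them in different groups and do not explain this. The submitters' descriptions number the arrays, and 4 of 5 arrays at 50 mg/kg have numbers 1 to 8, where each other group has 1. Hepatocyte genes (7 measured, mean log2 signal 14.53 to 14.61) and the fetal genes Afp, Igf2 and H19 (mean 14.21 to 14.45) were near the top of the range on all 19 arrays. Skeletal muscle genes (9 measured of 10) also varied, with means of 11.68 and 9.49 in vehicle replicates 1 and 5, 10.19 and 9.63 in 50 mg/kg replicates 2 and 3, and 7.43, 8.23 and 6.99 in 15 mg/kg replicates 2, 4 and 5. The other 12 arrays had 4.31 to 5.29, and the part of muscle in the values below was not tested. Sex is labelled female, and the labels do not say whether this means the dam or the pup. The Y-linked Eif2s3y read 9.55 to 10.07 and Uty 9.46 to 10.03 on the 19 arrays, and Xist read 3.88 to 4.29. High Y-linked signal with low Xist on every array goes against female as the sex of the livers measured.

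Sequences upstream of 4 genes are shown here because the Sult2a genes are near-copies that carry a shared element, and because Sult1b1 turned out to be the member with the largest difference at 50 mg/kg. The Sult2a genes lie near each other on chromosome 1. Each is the 250 bases before the annotated start in RefSeq, build GRCr8, read 5′ to 3′ on the strand of the gene. The regions are chr1:84097809-84098058 (minus strand), chr1:84638948-84639197 (minus strand), chr1:85104533-85104782 (minus strand) and chr14:20771667-20771916 (plus strand). Capitals mark GGGTCATGAACT in the Sult2a genes, an inverted repeat of the nuclear receptor motif, known in rodents as a response element of Sult2a genes. In Sult1b1 they mark AGTTCA, a single copy of that motif.
Sult2a6: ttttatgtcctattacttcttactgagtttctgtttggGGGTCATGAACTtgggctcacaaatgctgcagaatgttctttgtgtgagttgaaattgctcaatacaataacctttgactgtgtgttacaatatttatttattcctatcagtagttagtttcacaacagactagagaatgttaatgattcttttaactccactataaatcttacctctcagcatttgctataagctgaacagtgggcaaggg
Sult2a1: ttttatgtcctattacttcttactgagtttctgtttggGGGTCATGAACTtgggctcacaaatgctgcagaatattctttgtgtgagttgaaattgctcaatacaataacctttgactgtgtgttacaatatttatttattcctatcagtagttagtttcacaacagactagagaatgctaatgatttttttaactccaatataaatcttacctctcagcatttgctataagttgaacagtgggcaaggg
Sult2a2: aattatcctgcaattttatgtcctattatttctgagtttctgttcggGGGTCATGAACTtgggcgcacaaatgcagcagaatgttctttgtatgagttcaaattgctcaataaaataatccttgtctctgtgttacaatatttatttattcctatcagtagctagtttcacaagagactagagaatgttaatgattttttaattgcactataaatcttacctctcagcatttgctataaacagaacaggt
Sult1b1: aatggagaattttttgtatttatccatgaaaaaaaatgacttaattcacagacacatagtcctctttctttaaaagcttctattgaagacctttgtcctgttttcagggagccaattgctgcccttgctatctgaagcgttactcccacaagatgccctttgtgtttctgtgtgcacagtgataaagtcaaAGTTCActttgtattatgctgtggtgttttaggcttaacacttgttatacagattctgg

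The windows of Sult2a6 and Sult2a1 were identical at 245 of 250 bases. Counted from 1 at the 5′ end, Sult2a1 differs from Sult2a6 by G74A, T179C, C188T, C200A and C233T. Sult2a2 matched Sult2a6 at 219 bases and Sult2a1 at 215 after alignment, each with 26 gap positions. The string GGGTCATGAACT was read from the Sult2a6 window itself, so its match there was fixed in advance. The other Sult2a windows are near-copies, so the count below cannot measure enrichment in these genes. It was found on either strand in 8 of 33469 such windows (0.0239%), 3 of them these Sult2a genes. It contains AGTTCA on the opposite strand, which 12.2% of all windows hold, and 4 of the 11 member windows (Sult1b1, Sult2a1, Sult2a2 and Sult2a6). AGGTCA was in the window of Sult1e1 alone among the members (14.1% of all windows) and GCGTG, the core bound by the AhR, in that of Sult2b1 alone (25.9%). TGACNNNGC, the core of the antioxidant response element, was in 0 member windows (10.1% of all). A match is a run of letters and not a site shown to be used.

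In neonatal liver 4 members had a high signal on every array, and they cover phenol, thyroid hormone, arylamine and steroid conjugation. Sult2a6, a hydroxysteroid and bile acid sulfotransferase, read 12.61 to 13.29 (median 12.95). Sult1b1, which sulfates thyroid hormones and dopa, read 10.84 to 13.16 (median 11.82). Sult1a1, the main phenol sulfotransferase, read 10.98 to 12.53 (median 11.98). Sult1c3, the N-hydroxyarylamine sulfotransferase of rat liver, read 7.99 to 9.95 (median 9.10). All 4 lay above the median of their array on 19 of 19 arrays.

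RMA gives no call of presence, so 20 probe sets for chemoreceptor genes of the nose (olfactory, vomeronasal and trace amine receptors) served as a reference. Their 95th percentile was 4.92. The 4 genes above and Sult2b1 lay above it on all 19 arrays, as did 75.3% of 14217 genes, so passing it marks a signal above that reference and little more. Sult2b1, which sulfates pregnenolone and cholesterol, read 5.39 to 5.78 on its leading probe set and 3.69 to 4.26 on the other, and it did not pass the 99th percentile (5.48) on every array. Sult1d1, which sulfates catecholamines and other amines in mouse (2.72 to 3.09), Sult1e1, the estrogen sulfotransferase (3.22 to 4.91), Sult2a1 (2.69 to 3.04) and Sult2a2 (2.99 to 4.13), both hydroxysteroid sulfotransferases, lay at or below the reference on all 19 arrays. Probe sets differ in how strongly they bind, so these levels cannot be ranked against each other, and a low signal leaves both a low transcript level and a weakly binding probe set possible. The probe set of Sult2a1 has no accession in the platform annotation. Whether the probe sets named for Sult2a6, Sult2a1 and Sult2a2 each detect 1 of these near-copies or several was not tested, so the signal named Sult2a6 may hold transcripts of the others.

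**Figure D1:**
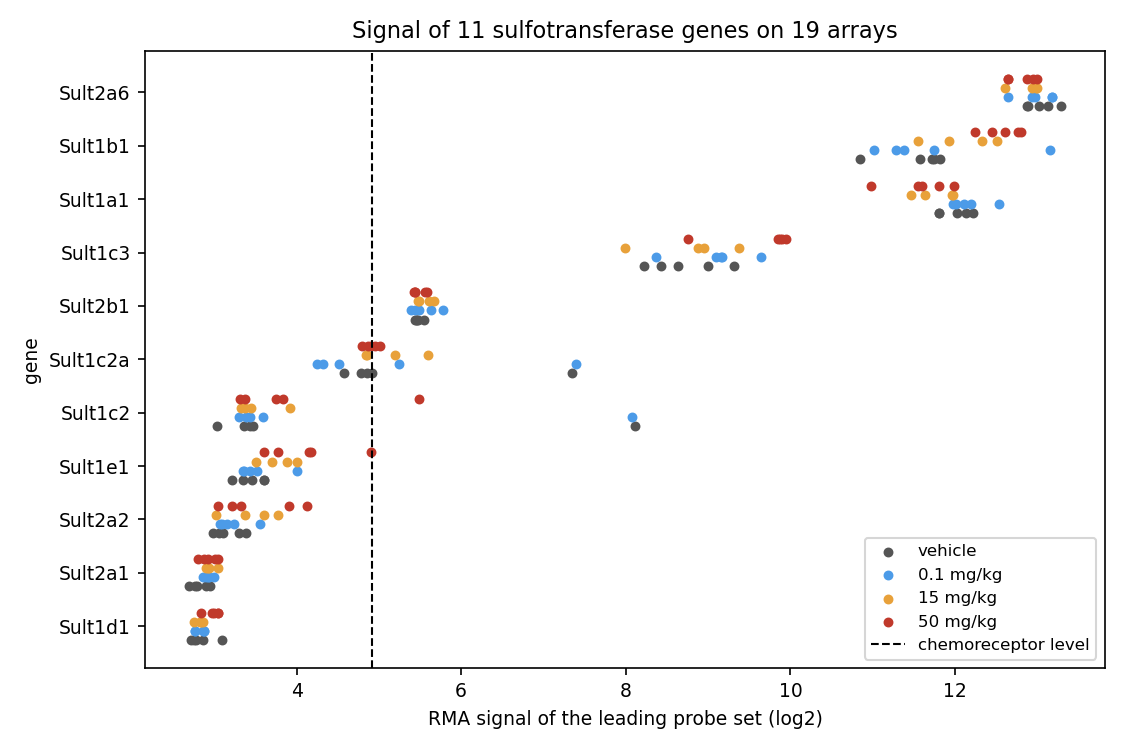
RMA signal (log2, horizontal axis) of the leading probe set of 11 sulfotransferase genes (rows), 1 point per array, coloured by dose group. The dashed line is the 95th percentile of 20 chemoreceptor probe sets (4.92); Sult2a6, Sult1b1, Sult1a1 and Sult1c3 lie far to its right, and Sult1c2 lies above it on 3 arrays and Sult1c2a on 7.

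RefSeq GRCr8 places Sult1e1, Sult1d1 and Sult1b1 next to each other on chromosome 14, in this order and with no other protein-coding gene between them, and Ugt2a1 after Sult1b1. Of these 3 sulfotransferase genes, Sult1b1 lay above the reference on 19 of 19 arrays and Sult1d1 and Sult1e1 on 0, within the limit on probe sets just given.

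Sult1c2 and Sult1c2a were high on the 2 near-identical arrays. Sult1c2, a sulfotransferase known from rat kidney, read 8.11 in vehicle replicate 2, 8.08 in 0.1 mg/kg replicate 2 and 5.49 in 50 mg/kg replicate 3. On the other 16 arrays it read 3.03 to 3.92. Those 3 arrays were also the highest for kidney transcripts. The mean log2 signal of 8 measured kidney genes of 9 listed was 9.27, 9.27 and 6.65 there and 4.13 to 4.45 on the other arrays. The sodium-potassium-chloride cotransporter Slc12a1 read 11.94, 11.97 and 9.12 and the phosphate transporter Slc34a1 12.09, 12.09 and 8.82. The podocyte gene Nphs1 stayed at 4.32, 4.28 and 4.07, below the reference. Sult1c2a read 7.35 and 7.39 on the near-identical arrays, 5.01 in 50 mg/kg replicate 3 and 4.25 to 5.60 elsewhere. Its value of 5.60 was in 15 mg/kg replicate 4, which had the highest mean of 7 stomach genes (7.86, against 4.48 to 4.81 elsewhere). The probe set with several symbols, a Sult1 gene among them, was likewise high on the same 2 arrays (5.79 and 5.55). The part of other tissue in these values was not tested.

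**Figure D2:**
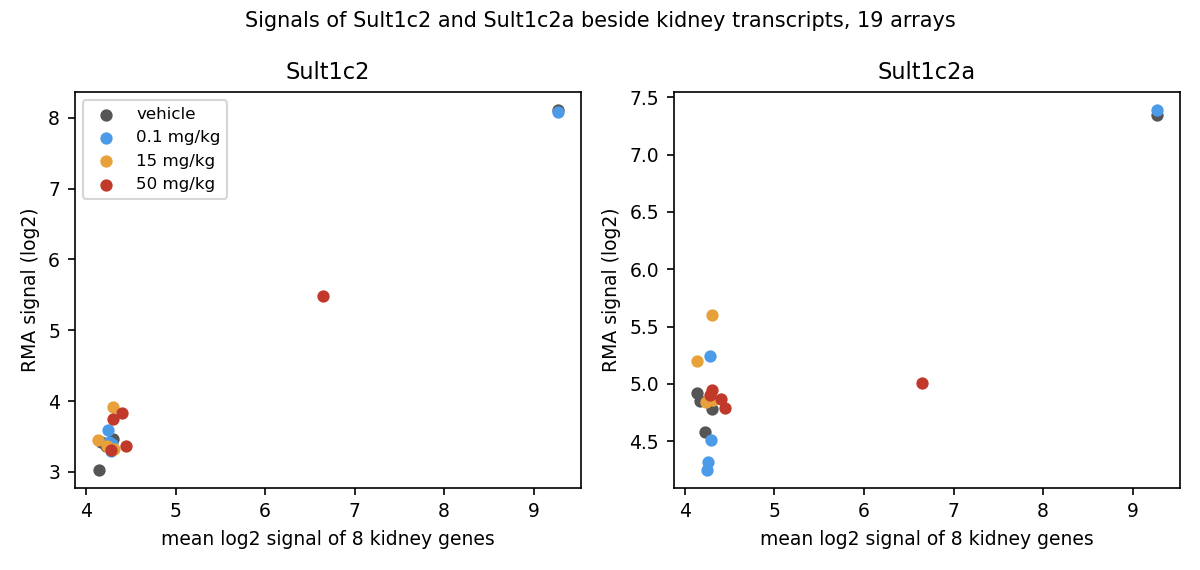
Log2 signal of Sult1c2 (left) and Sult1c2a (right) on the vertical axes against the mean log2 signal of 8 kidney genes on the horizontal axes, 1 point per array, coloured by dose group. Vehicle replicate 2 and 0.1 mg/kg replicate 2 lie on top of each other at a kidney mean of 9.27, and 50 mg/kg replicate 3 stands at 6.65.

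With those 2 arrays in the fit, Sult1c2 differed from vehicle by -0.33 at 50 mg/kg (95% confidence interval -2.31 to 1.65) and Sult1c2a by -0.39 (-1.52 to 0.73). Without them the differences were 0.63 (adjusted p = 0.39) and 0.12 (adjusted p = 0.806), so the sign of each turned.

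The question of the study was which transcripts differ from vehicle at each dose. Of the 11 members, 0 passed at 50 mg/kg (limma's moderated test over all 19 arrays, Benjamini-Hochberg over all probe sets, threshold 0.05), where 1.61% of all probe sets passed. At an unadjusted p under 0.05 there were 5 (Sult1a1, Sult1b1, Sult1c3, Sult1d1 and Sult1e1), against 15.4% of all probe sets. The median difference of the members was 0.11 and that of all probe sets 0.02 (log2). At 15 mg/kg 0 of 11 passed (0% of all probe sets), with 0 under an unadjusted 0.05 (9.93% of all). At 0.1 mg/kg 0 passed (0% of all), again with 0 at an unadjusted p under 0.05 (2.46% of all). Between 50 and 15 mg/kg 0 passed (0% of all), and 2 members, Sult1c3 and Sult1d1, had an unadjusted p under 0.05 (7.79% of all). A test of any difference among the 4 groups called 0 members (0.325% of all), with 4 at an unadjusted p under 0.05 (10.5% of all). The comparisons with vehicle share the vehicle arrays. In these pieces of liver, fewer cells of a type and less transcript per cell cannot be told apart.

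**Figure D3:**
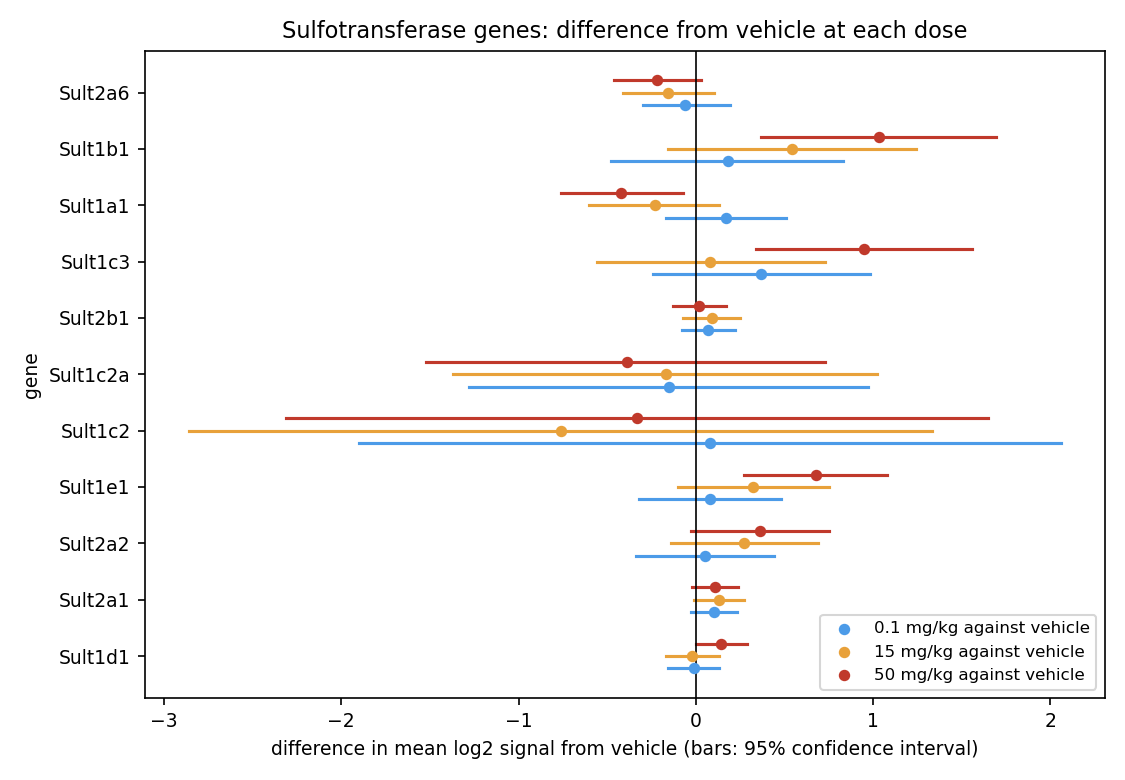
Difference in mean log2 signal from vehicle for the 11 genes at 0.1, 15 and 50 mg/kg, with 95% confidence intervals. Sult1b1, Sult1c3 and Sult1e1 stand to the right of 0 at 50 mg/kg and Sult1a1 to the left, and the widest intervals are those of Sult1c2 and Sult1c2a.

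Sult1b1 had the largest difference at 50 mg/kg. In vehicle it read 11.82, 11.72, 11.58, 11.74 and 10.84. At 50 mg/kg it read 12.24, 12.76, 12.80, 12.61 and 12.45, so every array at this dose lay above every vehicle array. Sult1b1 was the only one of 11 members whose groups did not overlap, where 3.21% of all probe sets were higher and 1.48% lower without overlap. In the other comparisons 0 of 11 members separated. Of all probe sets, 2.21% were higher and 1.16% lower at 15 mg/kg, 0.148% higher and 0.0515% lower at 0.1 mg/kg, and 1.84% higher and 1.02% lower at 50 against 15 mg/kg. The difference was 1.03 log2, or 2.04-fold (SE 0.313, interval 0.37 to 1.69, adjusted p = 0.108). The 4 groups share 1 estimate of spread in this fit. At 15 mg/kg it read 11.93, 12.51, 12.33 and 11.55, which overlaps vehicle (0.54, interval -0.16 to 1.24, adjusted p = 0.588). At 0.1 mg/kg it read 13.16, 11.74, 11.02, 11.28 and 11.38. The 13.16 was the highest of all 19 arrays and came from the library labelled 0.1 mg/kg replicate 1, the same that had high Cyp1a1.

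Without that library the spread was smaller and the adjusted p of Sult1b1 at 50 mg/kg was 0.0147 at the same difference of 1.03. The difference at 0.1 mg/kg went from 0.18 with it to -0.19 without it (adjusted p = 1 in each). Without it and the 2 near-identical arrays the difference at 50 mg/kg was 1.08 (adjusted p = 0.0167). Within arrays numbered 1 to 8 it was 0.79 (4 arrays against 1 vehicle array), and within those numbered 9 to 20 it was 0.98 (1 array against 4). With these parts as a block in the fit it was 0.71 (adjusted p = 0.414), and 1.01 without the 3 arrays (adjusted p = 0.0791).

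Sult1c3 stood higher on 4 of the 5 arrays at 50 mg/kg. These read 9.87, 9.85, 9.90 and 9.95, above all other 15 arrays, while 50 mg/kg replicate 5 read 8.75. Vehicle read 8.63, 8.43, 8.22, 9.0 and 9.31. The 0.1 mg/kg arrays read 9.10, 8.37, 9.17, 9.16 and 9.64, and the 15 mg/kg arrays 8.88, 9.38, 8.95 and 7.99. The difference from vehicle at 50 mg/kg was 0.95 log2, or 1.93-fold (SE 0.29, interval 0.34 to 1.56, adjusted p = 0.111), and that from 15 mg/kg was 0.87 (adjusted p = 0.516). At 15 mg/kg the difference from vehicle was 0.08 and at 0.1 mg/kg 0.37. Within arrays numbered 1 to 8, which hold the 4 high arrays, the difference at 50 mg/kg was 1.27, and within those numbered 9 to 20, which hold replicate 5, it was 0.01. Without 50 mg/kg replicate 5 it was 1.18 (adjusted p = 0.0427).

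Sult1a1 was the expressed member with the largest difference downward. Vehicle read 12.13, 12.03, 11.80, 11.80 and 12.22, and 50 mg/kg read 11.60, 11.55, 11.80, 10.98 and 11.99. The groups overlapped, and 50 mg/kg replicate 4 held the lowest value of the 19 arrays. The difference was -0.42 log2, or 1.33-fold lower (SE 0.163, interval -0.76 to -0.07, adjusted p = 0.224). Without replicate 4 it was -0.26 (adjusted p = 0.426). At 15 mg/kg, with 11.96, 11.98, 11.47 and 11.63, it was -0.23 (adjusted p = 0.644). At 0.1 mg/kg, with 12.19, 12.01, 12.11, 11.98 and 12.53, it was 0.17. Within arrays numbered 1 to 8 the difference at 50 mg/kg was -0.65 and within those numbered 9 to 20 it was 0.02.

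Sult2a6 varied least among these 4 genes, with an SD of 0.192 over 19 arrays, against 0.340 for Sult1a1, 0.595 for Sult1c3 and 0.640 for Sult1b1. Its means were 13.04 ± 0.174 in vehicle (n = 5), 12.98 ± 0.216 at 0.1 mg/kg (n = 5), 12.88 ± 0.184 at 15 mg/kg (n = 4) and 12.82 ± 0.17 at 50 mg/kg (n = 5), as mean ± SD. The difference at 50 mg/kg was -0.22 (interval -0.46 to 0.03, adjusted p = 0.384) and that at 15 mg/kg -0.16 (adjusted p = 0.665). All groups overlapped. The mean signal of Sult2a6 over 19 arrays, 12.93, was higher than that of 99.2% of all probe sets, and the highest value in the data was 15.06. RMA can read too small a fold at high signals, and whether it did so here was not tested.

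**Figure D4:**
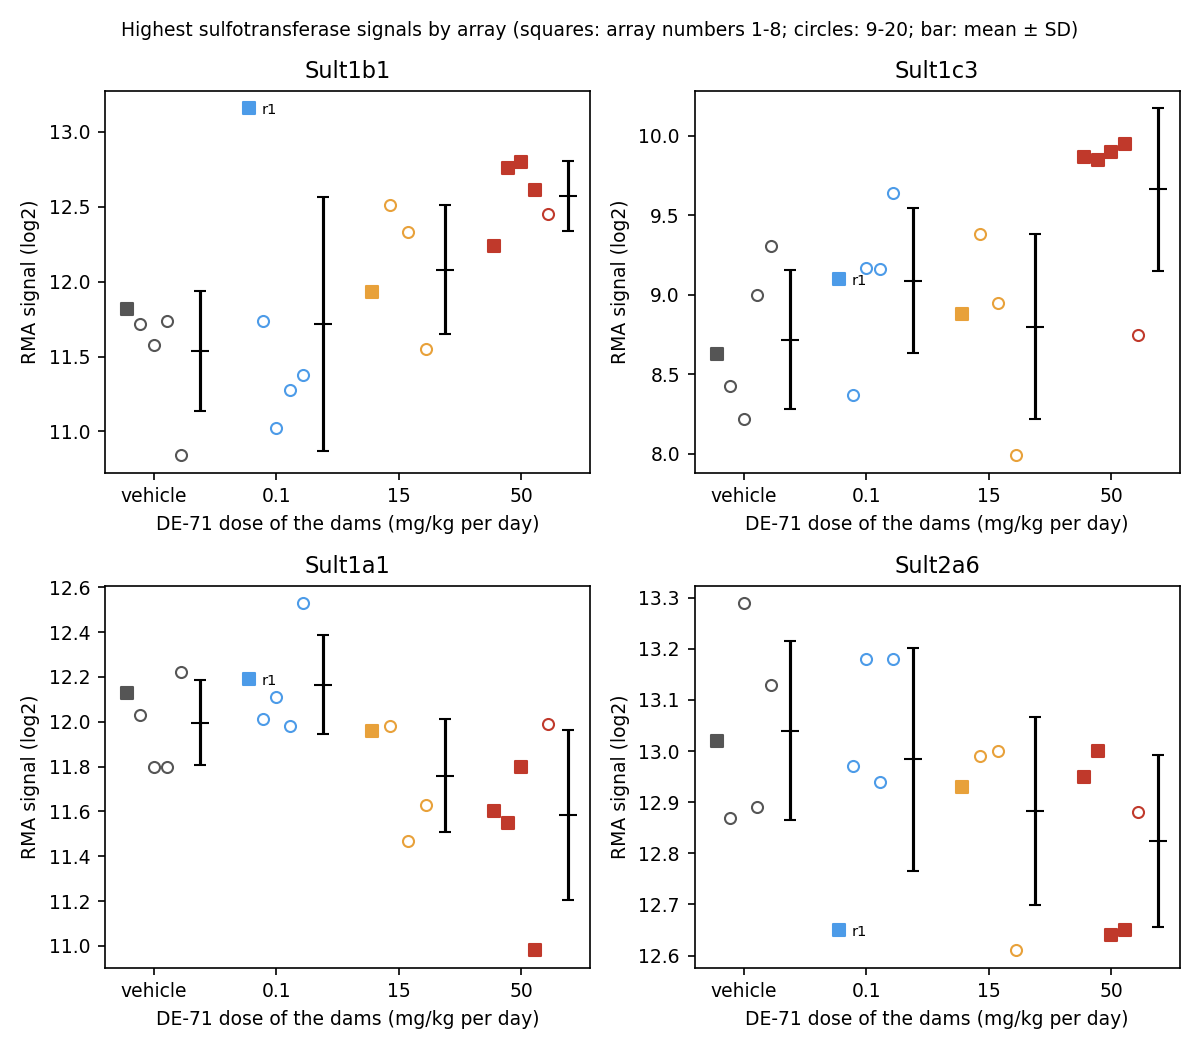
Log2 signal of Sult1b1, Sult1c3, Sult1a1 and Sult2a6 by dose, 1 point per array, with mean ± SD beside each group. Squares are arrays numbered 1 to 8 and circles those numbered 9 to 20; r1 marks the library labelled 0.1 mg/kg replicate 1, the highest of all arrays for Sult1b1 at 13.16.

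Among the members with low signal, Sult1e1 differed most at 50 mg/kg. Sult1e1 read 3.35, 3.22, 3.60, 3.46 and 3.61 in vehicle and 4.18, 4.91, 4.15, 3.78 and 3.61 at 50 mg/kg, which met the highest vehicle value at its lowest. Its difference of 0.68 (SE 0.19, interval 0.27 to 1.08) had the smallest adjusted p of the members, 0.0842. It was 0.90 within arrays numbered 1 to 8 and 0.13 within those numbered 9 to 20, and 0.80 without 50 mg/kg replicate 5 (adjusted p = 0.0438). At 15 mg/kg it was 0.32 (adjusted p = 0.595). In this range a fold rests on signals below the chemoreceptor reference. Sult2a2 differed by 0.36 at 50 mg/kg (interval -0.03 to 0.75, adjusted p = 0.368), with 2 arrays at 4.13 and 3.91 and the other 3 at 3.05 to 3.32. Sult1d1 differed by 0.14 (interval 0.00 to 0.29), Sult2a1 by 0.11 (-0.02 to 0.24) and Sult2b1 by 0.02 (-0.13 to 0.17), with adjusted p = 0.321, 0.415 and 0.92. The other probe set of Sult2b1 differed by -0.06 (adjusted p = 0.799). The intervals of Sult1d1, Sult2a1 and Sult2b1 leave out a difference above 0.29 log2 in these signals.

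Genes that move most like the members over the arrays were named by the highest Pearson correlation of log2 signals over 19 arrays among 14216 genes. For Sult1b1 these were Ergic2 (0.855), a membrane protein of the early secretory pathway, the proteasome subunit gene Psma1 (0.835) and Sar1b (0.824), a GTPase of vesicle budding from the endoplasmic reticulum. For Sult1c3 they were the receptor phosphatase Ptprj (0.874), Trim5 (0.848) and the complement gene C9 (0.828). For Sult1a1 they were Clybl (0.818), a mitochondrial enzyme, Zbtb34 (0.796) and Spg21 (0.793). Taking each group's mean out, the correlations were 0.676 to 0.78. All arrays share the RMA processing, and the highest of so many correlations over 19 points is high by its choice.

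The genes that supply and clear the cofactor showed 1 change at 50 mg/kg. Bpnt1, which hydrolyses PAP, the product left by every sulfotransferase reaction, rose 1.71-fold (0.77 log2, SE 0.0901, adjusted p = 0.000893). It read 9.34, 9.67, 9.36, 9.41 and 9.45 in vehicle and 10.32, 10.17, 10.37, 9.94 and 10.30 at 50 mg/kg. The 15 mg/kg arrays (9.89, 9.79, 9.72 and 9.79) lay above all vehicle arrays and below all 50 mg/kg arrays, a difference from vehicle of 0.35 that did not pass (adjusted p = 0.427). Such separation upward was seen in 2.21% of all probe sets at 15 mg/kg against vehicle and in 1.84% at 50 against 15 mg/kg. The library labelled 0.1 mg/kg replicate 1 read 9.78, and the others of its group 9.38 to 9.64. Bpnt1 passed in 31 of 31 other ways of running the comparison (adjusted p 0.000137 to 0.00977).

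Of 19 measured genes of sulfate supply, Bpnt1 rose, 0 fell and 18 did not pass at 50 mg/kg (1.22% of all probe sets passed and were higher, 0.383% lower). The PAPS synthases Papss1 (-0.35, adjusted p = 0.659) and Papss2 (0.01, adjusted p = 0.978) were among those that did not pass, as were the sulfate transporters Slc26a1 (0.52, adjusted p = 0.0854) and Slc13a4 (-0.84, adjusted p = 0.0842), which differed in opposite directions. Papss1 was highest in 15 mg/kg replicate 5 (11.10), followed by the near-identical arrays (10.46 and 10.44), and read 8.95 to 9.57 on the others. The same 3 arrays had the highest means of 10 exocrine pancreas genes (7.92, 8.43 and 8.45), where vehicle replicate 4 had 7.30 and the others 5.08 to 5.36. The first also had the highest mean of 5 intestine genes (8.47). The part of other tissue was not tested. Papss2 lay at 10.07 to 10.75 in vehicle and 10.21 to 10.68 at 50 mg/kg. The list's median difference was -0.17, that of all probe sets 0.02.

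**Figure D5:**
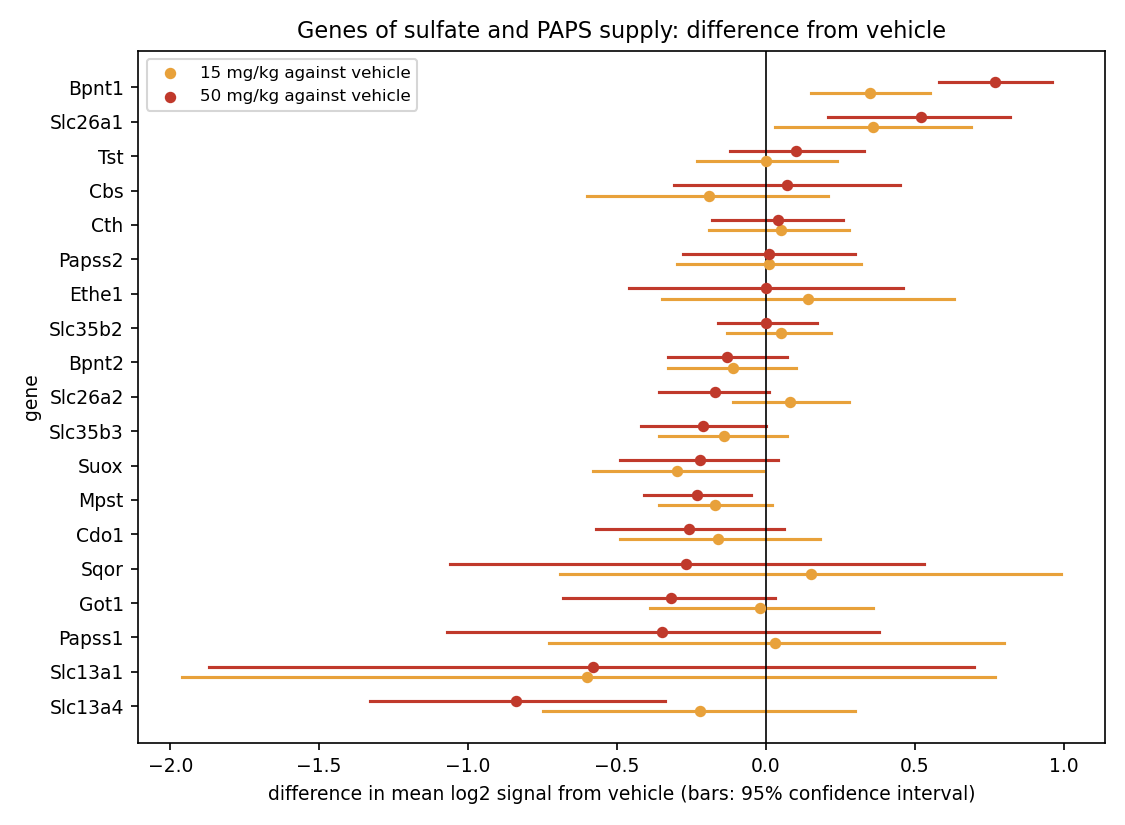
Difference in mean log2 signal from vehicle at 15 and 50 mg/kg for 19 genes of sulfate and PAPS supply, with 95% confidence intervals. Bpnt1 stands at 0.77 for 50 mg/kg and 0.35 for 15 mg/kg, Slc13a4 at -0.84 and -0.22, and the intervals of Papss1 and Papss2 span 0.

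The counts at 50 mg/kg that follow stand beside 1.22% of all probe sets that passed and were higher and 0.383% lower. Among enzymes that remove sulfate, 0 of 11 measured hydrolase genes passed at 50 mg/kg, with a median difference of -0.07. The smallest unadjusted p-values were those of the arylsulfatase gene Arsk (0.29, adjusted p = 0.24) and of Sumf1 (0.21, adjusted p = 0.246), which activates sulfatases. Steroid sulfatase, Sts, stood at -0.09 (adjusted p = 0.842). Of 11 measured carriers of sulfate conjugates 2 rose, the export pumps Abcc2 (1.23 log2, 2.34-fold, SE 0.167, adjusted p = 0.00123) and Abcc3 (1.91 log2, 3.76-fold, SE 0.299, adjusted p = 0.00369). The other 9 carriers were not called, among them Abcg2 (0.41, adjusted p = 0.428). The median over the carriers was 0.20. Of 15 receptors and factors known to act on sulfotransferase genes, Nfe2l2, the NRF2 regulator of antioxidant genes, rose by 0.88 log2 (1.84-fold, SE 0.154, adjusted p = 0.00817). The other 14 were not called, and the list's median was 0.07. Nfe2l2 did not pass with the parts of the array numbers as a block (0.71, adjusted p = 0.0791). The largest difference of the list was that of Ahr, the dioxin receptor (1.15, adjusted p = 0.126, and 1.13 at 15 mg/kg, adjusted p = 0.439). The xenobiotic receptor genes Nr1i2 (0.24) and Nr1i3 (-0.18) did not pass, with adjusted p = 0.512 and 0.671. At 15 mg/kg 0 genes of these 4 lists passed, where 0% of all probe sets passed, so this count says nothing particular to the lists. Even Cyp1a1 did not pass at that dose (5.90 log2, adjusted p = 0.0724), though all its 15 mg/kg arrays lay above all vehicle arrays. The 4 groups share 1 estimate of spread. The SD of Cyp1a1 was 2.81 at 0.1 mg/kg, the group with the replicate 1 library of high Cyp1a1. It was 0.491 in vehicle, 0.442 at 15 mg/kg and 0.078 at 50 mg/kg.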

How the data were processed

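Per the labels, total RNA from the left lateral liver lobe (100 ng) was amplified and measured on Affymetrix Rat230_2 arrays. The deposited log2 values come from RMA, per the submitters' processing notes; the sources used here give no version. Folds of very low and very high signals come out too small after RMA. Array medians lay between 6.05 and 6.16. The number of arrays limits the precision.

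Without 57 control probe sets, 31042 were tested with limma 3.58.1 in R 4.3.3, with 1 mean per dose group over all 19 arrays. The series' design text names R/maanova, not run here. Symbols came from the platform annotation (20826 probe sets with 1 symbol, 436 with several, 9780 with none), of which 20760 were matched to RefSeq. All 11 genes had an upstream sequence in RefSeq GRCr8. The fit was checked on simulated data. Alternatives were a filter on low signals, array weights, another variance prior, median centring, cyclic loess, the mean of a gene's probe sets, blocks, the compared groups alone and leaving out arrays.

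Members and lists were chosen with earlier results of these data known. Named were all members, list genes that passed at 50 or 15 mg/kg (otherwise the 2 smallest p-values), and the 3 genes most like each of 3 members. Papss1, Papss2, Slc13a4, Slc26a1, Ahr, Sts, Abcg2, Nr1i2 and Nr1i3 were named after their values were seen. No rule set beforehand picked Slc12a1, Slc34a1 and Nphs1 from the kidney genes. Whether each array is another animal or litter is not stated in the labels. The p-values then reflect only how far these samples spread, which may be technical.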

Additional observations from a re-analysis of the deposited data

Results flagged for a closer look

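Of 48 sets of arrays (12 probe sets in 4 groups), 10 held a value far from the others of its group by Dixon's test. Chance flags about 1 in 20 such sets. Sult1c2 was high in vehicle replicate 2 (8.11, others 3.03 to 3.47), in 0.1 mg/kg replicate 2 (8.08, others 3.30 to 3.59) and in 50 mg/kg replicate 3 (5.49, others 3.31 to 3.83), and Sult1c2a in vehicle replicate 2 (7.35, others 4.58 to 4.92). Kidney transcripts were high on the same 3 arrays, as given above, and their part was not tested. Sult1b1 was low in vehicle replicate 5 (10.84, others 11.58 to 11.82), without which its difference at 50 mg/kg was 0.86 (adjusted p = 0.243). Sult1c3 was low in 50 mg/kg replicate 5 (8.75, others 9.85 to 9.95). Sult1e1 was high in the library labelled 0.1 mg/kg replicate 1 (4.00, others 3.35 to 3.52). Sult2a6 was low in 15 mg/kg replicate 5 (12.61, others 12.93 and above), the array with the highest mean of 5 intestine genes (8.47). Both probe sets of Sult2b1 were flagged, at 5.55 in vehicle replicate 3 (others 5.44 to 5.47) and at 4.26 in 15 mg/kg replicate 2 (others 3.71 to 3.79).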

How the results depend on the processing

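The count of members past the threshold at 50 mg/kg was 0, and became 1 (Sult1b1) with array weights (adjusted p = 0.0487), with only the compared groups in the fit (adjusted p = 0.0304) and, chosen after the data were seen, without the library labelled 0.1 mg/kg replicate 1, vehicle replicate 2 and 0.1 mg/kg replicate 2. Leaving out each array in turn gave 0 to 2: Sult1b1 without 0.1 mg/kg replicate 1, and Sult1c3 and Sult1e1 without 50 mg/kg replicate 5. In the test of any difference the count was 0, with 0 to 1 on leaving out an array (1 without 0.1 mg/kg replicate 1) and 1 without the 3 arrays. The cause was not tested. The counts at 15 and 0.1 mg/kg and between 50 and 15 mg/kg were 0 in all alternatives run. A filter at the median level kept 4 members. The replicate number as a block gave 0 at each dose (511 probe sets at 50 mg/kg, against 499); these numbers do not pair the arrays (11 of 27 same-numbered pairs correlated above 0.1, -0.534 to 0.889, and 4 of 19 arrays fitted their own number best). Probe sets passing at 50 mg/kg went from 57 (array number parts as a block) to 921 (array weights), 178 to 704 on leaving out an array, and those of the any-difference test from 17 to 373, where 101 passed. Members called expressed were 5, and 4 by the 99th percentile or the array median.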
